A study of Mus musculus with 2 samples.

Results

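The hepatic NK-like γδ T cells were 2194 of the 8075 liver cells kept for analysis, a share of 27.2% (95% exact binomial interval 26.2 to 28.2). They were chosen by their UMI counts, as the liver cells with at least 2 UMIs of Tyrobp and Ncr1 together, no UMI of Cd28 or Cd40lg, at most 2 UMIs over Klra6, Klra7, Klrg1, S1pr5 and Gzmk, at most 3 over the macrophage genes Lyz2, C1qa, C1qb and C1qc, and at most 2 over Il17a, Tmem176a, Tmem176b and Ccr6. A UMI is a molecular tag that counts 1 captured transcript. Both deposited libraries held γδ T lymphocytes from untreated, wild type C57BL/6J mice aged 8 weeks, 1 library from the liver and 1 from the thymus, and the study asked how γδ T cells differ within and between these organs. The cells had been sorted for CD3e and the γδ T cell receptor, the thymic suspension after depletion of CD4 and CD8 cells. The cells came from several mice, and how these were divided over the libraries is not given in the sources used here. All cells of a class therefore come from 1 library, they are not replicates, and no test between classes or tissues was possible.

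Natural killer (NK) cells recognise stressed or infected cells through germline-encoded receptors, and many of these receptors have no signalling tail of their own. They pair with small adaptor proteins instead: Tyrobp encodes DAP12, which carries an activation motif for the kinases SYK and ZAP70, and Ncr1 encodes the activating receptor NKp46. Some γδ T cells switch on parts of this NK programme beside their T cell receptor, and the liver is known for its wealth of NK cells and NK-like T cells.

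The liver library held 8658 barcodes and 25040963 UMIs, the thymus library 4541 barcodes, and 60 barcode sequences occurred in both. Members carried a median of 2689 UMIs, from 1503 to 8408, and 1133 detected genes, against 2768 UMIs and 1130 genes in the 5881 other kept liver cells. Ribosomal-protein transcripts made up 22.1% of the members' UMIs and 27.7% of those of the other cells. The summed level of 14 myeloid genes was 244 CPM (UMIs scaled to a total of 1000000) in members and 961 CPM in the other cells, with Adgre1 and Marco at 0 in members. The 6 B cell genes summed to 21.9 and 38.0 CPM, the 8 hepatocyte genes to 7.42 and 9.18 CPM, and the 6 erythroid and platelet genes to 48.7 and 25.5 CPM. The 13 genes of the NK and innate lymphoid list summed to 4995 and 3829 CPM. This list included the T cell genes Cd3d, Cd3e and Cd3g, which gave most of both sums. The sums of the last 2 lists were higher in members, and their part in the results was not tested. For the NK and innate lymphoid list the higher sum came from the Cd3 genes, so it does not measure NK transcripts.

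The threshold cut through a continuous range. Of the 8075 kept liver cells, 3861 (47.8%) had at least 2 UMIs of Tyrobp and Ncr1, and of these 984 were set aside for Cd28 or Cd40lg, 660 for the Klra genes and their companions, 129 for the Il17a group and 106 for the macrophage genes, some of them for several of these. Among the cells that met every other limit, 683 had 0 UMIs of the pair and 344 had 1, and just inside the threshold 185 had 2 and 172 had 3. Members held a median of 7 UMIs of the pair, with quartiles at 5 and 11 and a highest value of 32. Tyrobp carried the rule: 2183 members had a Tyrobp UMI and 900 (41.0%) an Ncr1 UMI.

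**Figure D1:**
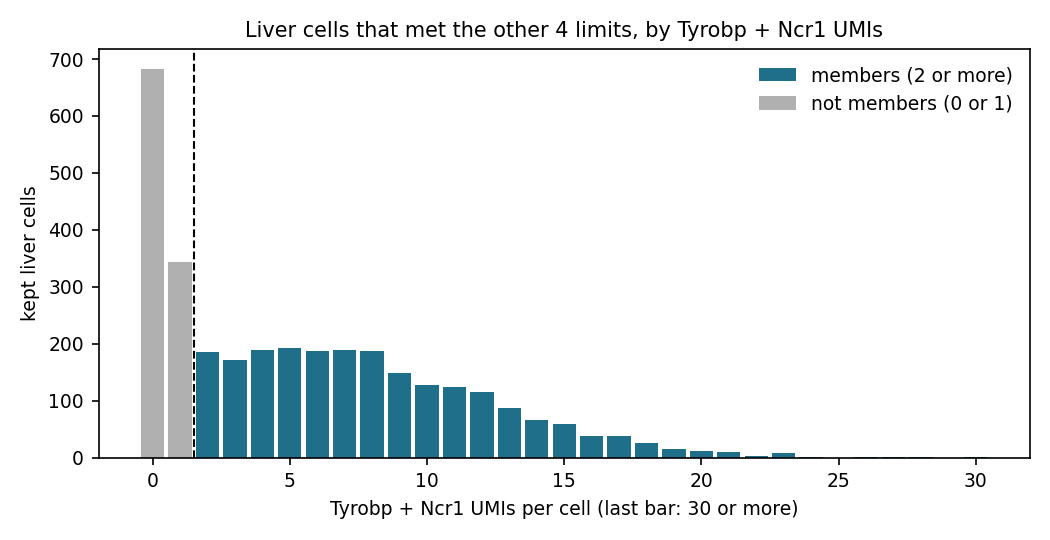
Number of kept liver cells (y axis) with each number of Tyrobp and Ncr1 UMIs (x axis), among cells that met the other 4 limits. Blue bars are the 2194 members and grey bars the 1027 cells below the threshold; the counts lie between 172 and 193 from 2 to 8 UMIs, with no gap at the threshold.

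Of the 6 marker genes, Tyrobp and Ncr1 chose the members, so their levels of 2632 and 248 CPM, against 642 and 64.2 CPM in the other liver cells, are a description only. The other 4 were not in the rule but come from the same cells. Ccl4, an inflammatory chemokine, stood at 6925 against 1752 CPM, a ratio of 3.95 (95% interval 3.89 to 4.01). Gzmb, the granule protease granzyme B, stood at 5846 against 1659.6 CPM, a ratio of 3.52 (95% interval 3.47 to 3.58). Klrd1, which encodes the CD94 chain shared by the NKG2 receptors, stood at 1792 against 899.8 CPM (ratio 1.99), and Cd200r2, a member of the CD200 receptor family, at 64.7 against 13.3 CPM (ratio 4.86). All 4 were thus higher in members than in the other liver cells. The intervals of levels and ratios cover counting error only.

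Genes of the T cell receptor complex were read in nearly every member. Cd3d, Cd3e and Cd3g, which encode the invariant chains of the T cell receptor complex, stood at 1232, 1093 and 2466 CPM in members and at 1116, 805 and 1585 CPM in the other liver cells. Only 1 of the 2194 members, and 42 of the 5881 other cells, had no UMI of any of the 3. Free RNA can give such UMIs, and among the 107 liver cells over the macrophage limit 33 (30.8%) had none, with 468 CPM of Cd3g and a median of 3069 UMIs. Eomes, a transcription factor of conventional NK cells, was at 6.29 CPM in members and 9.96 CPM in the other cells. Itga2, a surface marker of conventional NK cells, was at 0.968 CPM in members. Of the 6 genes compared from the NK and innate lymphoid list, the death ligand gene Tnfsf10 and Cd3g were higher in members and Tcf7 and Il7r lower. Whether NK cells of another type than the conventional one were among the members was not tested. The constant genes of the γδ receptor were not analysed here.

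For 3 of the 6 marker genes, Ncr1, Gzmb and Cd200r2, the 250 bases before the RefSeq transcription start (build GRCm38.p6) are shown. Ncr1 was high in members by the rule itself, and Gzmb and Cd200r2 were high beside it. Capitals mark TGTGGT or its reverse complement ACCACA, the core letters bound by RUNX factors, a family whose member Runx3 is described with the transcription factors. Ncr1 lies at chr7:4337465-4337714, plus strand, the first of its 2 listed starts. Gzmb lies at chr14:56262335-56262584, minus strand, and Cd200r2 at chr16:44866847-44867096, plus strand. Sequences run 5′ to 3′ along the gene.
Ncr1: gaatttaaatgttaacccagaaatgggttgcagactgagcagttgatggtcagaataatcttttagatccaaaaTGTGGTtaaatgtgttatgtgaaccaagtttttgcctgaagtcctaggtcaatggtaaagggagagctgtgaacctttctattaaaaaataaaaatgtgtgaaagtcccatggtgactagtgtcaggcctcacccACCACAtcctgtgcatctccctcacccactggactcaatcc
Gzmb: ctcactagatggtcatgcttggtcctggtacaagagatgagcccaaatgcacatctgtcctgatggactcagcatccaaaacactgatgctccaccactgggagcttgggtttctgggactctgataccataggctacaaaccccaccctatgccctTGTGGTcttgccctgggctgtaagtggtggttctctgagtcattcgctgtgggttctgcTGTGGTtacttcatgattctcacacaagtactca
Cd200r2: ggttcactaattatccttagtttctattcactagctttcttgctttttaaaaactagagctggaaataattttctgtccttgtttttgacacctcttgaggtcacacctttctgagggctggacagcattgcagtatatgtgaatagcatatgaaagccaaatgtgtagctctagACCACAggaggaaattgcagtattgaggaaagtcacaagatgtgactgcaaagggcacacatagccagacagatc

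The RUNX letters occurred 2 times in the Ncr1 window, 2 times in the Gzmb window and 1 time in the Cd200r2 window, on either strand. They occurred 0 times in the windows before Klra5 and Klra9, which were also high in members and are shown further on. Of all 32851 listed windows of this length, 14.1% held them at least once. The T-box letters GGTGTG, or CACACC on the other strand, occurred 1 time before Cd200r2 and not before the other two, against 16.3% of all windows, and the ETS letters AGGAAG, or CTTCCT, in none of the 3 windows, against 29.5% of all windows. The RUNX and T-box letters can overlap each other. The motifs were chosen after values were seen, a match of letters is a description, and no binding site was measured.

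Over all genes that met the minimum level, 2551 could be compared between members and other kept liver cells. By the size rule of a 1.5-fold ratio, 118 genes (4.63%) were higher in members and 124 (4.86%) were lower, and the median ratio was 1.02. With mitochondrial and ribosomal-protein UMIs left out of the totals, 3320 genes met the minimum level, and the split was 111 higher and 211 lower. The 15 largest ratios, outside the rule's own genes, were those of Sult2b1, Klra9, Cd200r2, Klra5, Ccdc136, Ccl4, Cited4, Epcam, Ccl3, Cd8a, Gzmb, Lag3, Itgax, Lat2 and Car2. They span from 4.90 for Sult2b1, a sulfotransferase acting on cholesterol and related sterols, to 3.22 for Car2, a carbonic anhydrase. NK receptors and effectors thus stood beside genes better known from other cells. Epcam, an epithelial adhesion molecule, stood at 53.7 against 14.4 CPM, and Itgax, the CD11c integrin chain of dendritic cells, at 104 against 31.1 CPM. Epcam UMIs were found in 7.02% of members and 15.04% held Itgax, after each cell had been thinned to 1500 UMIs, so both were read in a minority of members. Among the 846 liver cells with at least 3 UMIs over Klra6, Klra7, Klrg1, S1pr5 and Gzmk the shares were 5.79% and 15.2%.

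**Figure D2:**
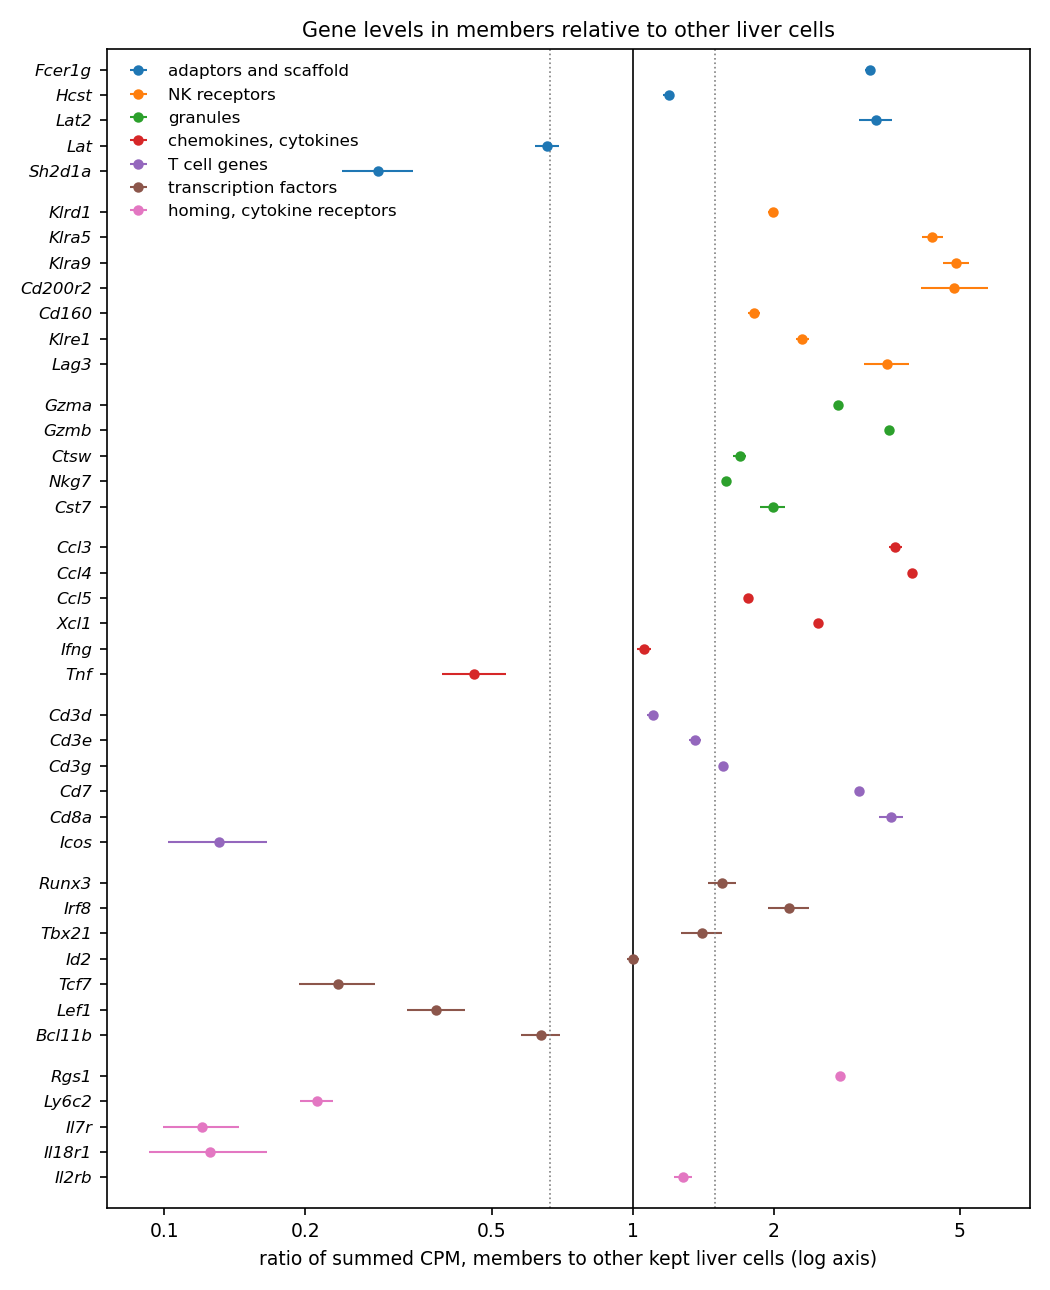
Ratio of the summed CPM of single genes in the 2194 members to that in the 5881 other kept liver cells (x axis, log scale), by gene (y axis) and coloured by gene group. Bars are 95% counting intervals, the solid line marks equal levels and the dotted lines a 1.5-fold ratio; Klra5, Klra9, Cd200r2 and Ccl4 lie farthest right and Il7r, Il18r1 and Icos farthest left.

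Among the adaptors outside the rule, Fcer1g was higher. It encodes the Fc receptor gamma chain, which carries NKp46 signals, and stood at 2809 against 876 CPM (ratio 3.21, 95% interval 3.14 to 3.28). Tyrobp and Fcer1g were both read in 91.2% of members at 1500 UMIs. Hcst, the DAP10 adaptor of NKG2D, was at 1259 and 1054 CPM, a ratio of 1.19. Sh2d1a, the SAP adaptor of the SLAM receptors, was 3.50-fold lower at 23.7 against 82.9 CPM. Of 5 adaptors compared, 1 was thus higher and 1 lower past 1.5-fold. Of 13 kinases and scaffolds, Lat2, a linker used by ITAM receptors in NK and B cells, was higher at 203 against 61.4 CPM (ratio 3.304), and Lat, the scaffold of the T cell receptor, was lower at 230.4 against 351 CPM (1.52-fold lower, and within the limit at a ratio of 0.727 without the cells over the Il17a or macrophage limits). The kinases Zap70 and Lck were within the limit at ratios of 1.29 and 1.23, and Syk was read at 10.0 CPM, under the minimum level.

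The activating NK receptors were higher as a group, 7 of 9 compared genes against 4.63% of all genes. Their median ratio was 1.81 against 1.02 over all genes. The 7 genes were Klrc2, Klrb1c, Klrb1f, Klre1, Cd244, Slamf7 and Cd160. Cd244, the 2B4 receptor for CD48, had the largest ratio at 3.11 (161 against 51.8 CPM), followed by Klre1 at 2.30 and Klrb1c, the NK1.1 antigen, at 2.14. Klrk1, which encodes NKG2D, and Cd226, the DNAM-1 receptor, were near equal at ratios of 1.13 and 1.09. The difference therefore did not extend to every activating receptor.

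Of 9 genes compared in a list of inhibitory receptors and their relatives, 6 were higher, against 4.63% of all genes, and none was lower. The median ratio was 2.33, against 1.02 over all genes. Klrd1 and Cd200r2, counted here, are also marker genes of the class. Cd200r2 and Cd200r4 stood in this list as relatives of Cd200r1, and no inhibitory role is claimed for them. Klra5 and Klra9, which encode the lectin-like receptors Ly49E and Ly49I, stood at 619 against 142 CPM (ratio 4.37, 95% interval 4.15 to 4.59) and 414 against 84.6 CPM (ratio 4.89, 95% interval 4.59 to 5.22). Klrd1, Lag3, Cd200r2 and Cd200r4 were the others, and Lag3, a checkpoint receptor for MHC class II, stood at 116 against 33.3 CPM. Klrc1, the inhibitory NKG2A chain that pairs with CD94, was at 734 and 529 CPM, a ratio of 1.39. Klrc1 and Klrc2 are close relatives, and how reads were split between them was not checked. Other checkpoint genes were barely read: Pdcd1 was at 9.36, Ctla4 at 5.49, Tigit at 14.7 and Havcr2 at 0.807 CPM in members.

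Klra5 and Klra9 marked partly different members. At 1500 UMIs, 33.5% of members held only Klra5, 19.4% only Klra9, 12.9% both and 34.2% neither, and the correlation of their log counts over the 2194 members, which share 1 library, was -0.11. The genes are close relatives, and the 250 bases before their starts, on the minus strand of chromosome 6, are shown to make this visible, with the longest stretch that both share in capitals.
Klra5: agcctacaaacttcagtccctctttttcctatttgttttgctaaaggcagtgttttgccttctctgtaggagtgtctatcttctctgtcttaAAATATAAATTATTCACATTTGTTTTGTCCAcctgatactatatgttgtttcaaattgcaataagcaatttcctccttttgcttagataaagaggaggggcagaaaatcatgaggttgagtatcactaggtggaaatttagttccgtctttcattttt
Klra9: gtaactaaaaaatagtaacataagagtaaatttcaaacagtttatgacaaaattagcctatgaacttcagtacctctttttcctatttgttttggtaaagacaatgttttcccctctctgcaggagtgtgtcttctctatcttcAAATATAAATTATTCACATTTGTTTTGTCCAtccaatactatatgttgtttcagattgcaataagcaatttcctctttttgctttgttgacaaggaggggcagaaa

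Klra5 lies at chr6:129913225-129913474 and Klra9 at chr6:130193113-130193362 in GRCm38.p6. The shared stretch is 31 bases, and an alignment with free ends matched 174 of 198 columns (87.9%). Reads could still be assigned: of 1216 windows of 100 bases in the coding transcripts of Klra5 in the GENCODE vM21 annotation, 0 occurred in another Klra gene, and of 1277 windows in those of Klra9, 7 did, all of them in Klra8. Which annotation the authors counted on is not given in the sources used here.

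Among cytotoxic genes, 7 of 14 compared were higher and none was lower, against 4.63% higher and 4.86% lower over all genes. The median ratio was 1.53, against 1.02 over all genes. Gzma, the granule protease granzyme A, stood at 4389 against 1598 CPM (ratio 2.75, 95% interval 2.70 to 2.79). Cst7, which restrains granule cathepsins, was higher at a ratio of 1.99, Tnfsf10, the death ligand TRAIL, at 2.12, Ctsw, a cathepsin of cytotoxic cells, at 1.69, Nkg7, a granule membrane protein, at 1.58 and Serpinb9, the inhibitor of granzyme B, at 1.58. Prf1, which makes the pore through which granzymes enter, was read at 14.7 CPM, in 2.32% (1.74 to 3.05) of members against 0.733% (0.295 to 1.504) of the 955 liver cells with at least 3 UMIs of the Il17a group. Fasl, the Fas ligand, was at 123 against 86.5 CPM (ratio 1.42), within the limit. Without the cells over the Il17a or macrophage limits, Nkg7 (1.38), Ctsw (1.499) and Serpinb9 (1.40) were within it too. Against the liver cells with at least 3 UMIs over Klra6, Klra7, Klrg1, S1pr5 and Gzmk, Gzmb alone of 14 cytotoxic genes was higher.

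Of 11 chemokines and cytokines compared, Ccl3, Ccl4, Ccl5, Xcl1 and Il2 were higher and Tnf was lower. Over all genes 4.63% were higher and 4.86% lower. Ccl3, a chemokine related to Ccl4, stood at 1259 against 346 CPM (ratio 3.64), and Xcl1, which attracts cross-presenting dendritic cells, at 3427 against 1380.2 CPM (ratio 2.48). Ifng, a type 1 cytokine that activates macrophages, was at 751 in members and 709 CPM in the other cells, a ratio of 1.06 (95% interval 1.02 to 1.09). Tnf was 2.18-fold lower at 30.01 against 65.3 CPM, a call lost without the cells over the Il17a or macrophage limits (ratio 0.772), and Il2 was higher at 62.4 against 27.7 CPM. Of the 4 chemokine receptors compared, Ccr2 was the 1 lower.

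Cd8a was read almost without Cd8b1. The alpha chain of CD8 stood at 404 against 113 CPM, and it was found in 34.7% (32.7 to 36.7) of members. The beta chain, needed for the CD8αβ form of conventional cytotoxic T cells, was at 2.58 against 14.2 CPM and in 0.319% of members, about the 0.314% found in the Il17a-group cells, and 1 member held both. Cd7, a surface glycoprotein of NK and T cells, stood at 4208 against 1383 CPM (ratio 3.04). Cd3g, Cd7 and Cd8a were the 3 genes higher among 11 T cell surface genes compared, and Icos, a costimulatory receptor, was the 1 lower, 7.63-fold lower at 11.6 CPM.

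Of 13 factors of type 1 and NK cells compared, Runx3, Irf8, Tox and Litaf were higher, with ratios from 1.501 to 2.24. Rora was 4.36-fold lower. Without the cells over the Il17a or macrophage limits, Runx3 (1.479) and Tox (1.499) were within the limit. Tbx21, which encodes T-bet, was at 96.2 against 68.5 CPM (ratio 1.40), and Id2 stood at 1027 and 1026 CPM. Of 7 factors of precursor and other T cells compared, 5 were lower, against 4.86% of all genes, and none was higher. Their median ratio was 0.381, against 1.02 over all genes. The 5 lower ones were Tcf7, Lef1, Maf, Satb1 and Bcl11b. Tcf7 and Lef1, the partners that keep T cells in an early state, were at 20.01 against 85.1 CPM and 35.3 against 92.8 CPM. Against the liver cells with at least 3 UMIs over Klra6, Klra7, Klrg1, S1pr5 and Gzmk, none of 4 such factors compared passed 1.5-fold. The median ratio there was 1.10.

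Of 15 residence and homing genes compared 4 were lower, and of 14 cytokine receptor and signal genes 4 were lower and 1, Il21r, was higher. Ly6c2, a surface antigen of the Ly6 family, was 4.72-fold lower at 103 CPM and Ccr2, a chemokine receptor, 12.1-fold lower at 9.84 CPM. S1pr1, the receptor that leads lymphocytes out of tissue, was at 6.29 against 47.4 CPM, under the minimum level. Rgs1, which damps chemokine receptor signals, was the 1 homing gene that was higher, at 8020.5 against 2898 CPM (ratio 2.77), while Cxcr6 and Cd69 were near equal at ratios of 0.936 and 1.09. The receptor for interleukin 7, Il7r, was 8.30-fold lower at 19.4 against 161 CPM, and Il18r1 7.99-fold lower at 8.23 CPM, while Il2rb, shared by the interleukin 2 and 15 receptors, was at a ratio of 1.28. Socs2 and Socs3, which restrain cytokine signals, were 2.82-fold and 2.97-fold lower. Against the cells with at least 3 UMIs over the Klra6 group, 12 cytokine receptor and signal genes were compared. There Socs1 and Socs2 (ratio 1.80) were higher in members and none was lower.

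None of 8 Gimap genes, 11 heat shock genes or 4 cell cycle genes passed 1.5-fold. Of 18 immediate-early genes compared, Nr4a2 was higher and Egr1, Nr4a1 and Nfkbia were lower, and Fos was at a ratio of 0.980. Of 10 interferon-induced genes, Ifi27l2a alone passed, 4.07-fold lower. The ribosomal-protein genes leaned one way: all 82 compared had a ratio under 1, with a median of 0.797, and 2 of them passed 1.5-fold. Of 14 S100, annexin and lectin genes, S100a6 and Anxa2 were higher and Lgals1, Lgals3 and Capg lower, and of 9 survival genes Bbc3 was higher and Bcl2a1d lower. Of 11 antigen presentation genes the 4 lower ones were the class II genes Cd74, H2-Aa, H2-Ab1 and H2-Eb1. Both γδ T17 genes compared, Blk and Cd163l1, were lower, which the limit on the Il17a group sets in part beforehand. Of the other-cell lists, Apoe was lower among 2 myeloid genes compared, no B cell, hepatocyte or erythroid gene reached the minimum level, and of 6 NK and innate lymphoid genes Tnfsf10 and Cd3g were higher and Tcf7 and Il7r lower. The part of myeloid transcripts in these results was not tested beyond the comparison that follows.

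The 15 lowest ratios included those of Cd163l1, Ramp1, Hk2, Blk, Cxcl2, Ccr2, Ly6a, Capg, Il7r, Il18r1, Apoe, Icos, Ctss and Emb, from 0.0657 to 0.143. When the cells over the Il17a or macrophage limits were left out, 2529 genes were compared. Of these 100 were higher and 76 lower, and 95 and 73 were the same genes as before. Cxcl2, a neutrophil chemokine, then moved to a ratio of 0.892 and Apoe, a lipid carrier made by macrophages, to 1.21. Il7r, Ly6a, Icos and Ccr2 were between 0.124 and 0.163, and the γδ T17 genes Cd163l1 and Blk were at 0.2525 and 0.527. Lower calls lost there were those of Tnf, Lat, Egr1 (0.757), S1pr4 (0.760), Bcl2a1d (0.677) and Lgals1 (0.918), and Lgals3 was at a ratio of 1.08. The class II genes H2-Eb1, H2-Aa and H2-Ab1 were then past 1.5-fold in the other direction, at 1.55, 1.67 and 1.72, and Cd74 was within the limit at 1.31. Few members carried these values, since 117 members held 144 of the 171 H2-Aa UMIs and 5 members 79.9% of the Cd74 UMIs. Of the higher genes, Nkg7, Ctsw, Runx3, Tox, Serpinb9, Il21r and Nr4a2 were then under the 1.5-fold limit, at ratios from 1.38 to 1.499. In the same comparison Ccl4, Gzmb, Klra5, Klra9 and Cd200r2 had ratios of 3.65, 3.10, 3.84, 4.23 and 4.09.

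The share of cells with a UMI shows how far these genes reached. Free RNA gives UMIs in cells that do not express a gene. The 955 cells with at least 3 UMIs of the Il17a group, chosen to lack cytotoxic genes, are therefore set beside the members. Their median was 2915 UMIs against 2689 in members. No limit on Tyrobp, Ncr1 or the macrophage genes was set for them. Single cells among them held up to 35 Gzmb, 68 Ccl4 and 20 Fcer1g thinned UMIs. Their shares can thus include expressing cells and do not measure free RNA alone. After thinning to 1500 UMIs, which left out none of the members or Il17a-group cells and 5 other cells, Gzmb was found in 94.5% (93.4 to 95.4) of members, 58.6% of other cells and 38.1% of the Il17a group. For Fcer1g the shares were 95.4%, 46.6% and 22.3%, for Klrd1 89.5%, 57.6% and 21.7%, and for Ccl4 87.0%, 49.0% and 34.6%. Unthinned, Gzmb was found in 97.2%, 71.0% and 54.0%, and Ccl4 in 92.8%, 65.1% and 54.6%. Gzmb, Fcer1g and Ccl4 were thus found in most members, and Cd200r2 in few, 10.2% (8.97 to 11.6) against 0.314% of the Il17a group.

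**Figure D3:**
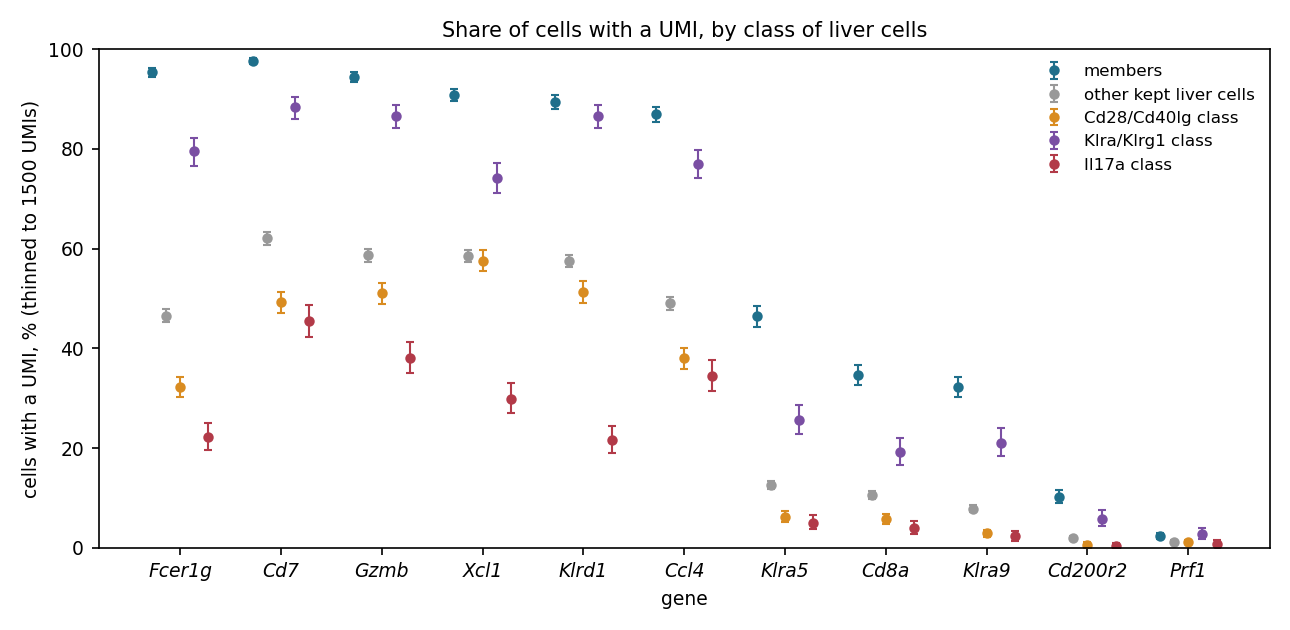
Share of cells with at least 1 UMI of each gene after thinning to 1500 UMIs (y axis, percent), by gene (x axis) and class of liver cells, with exact 95% binomial intervals. Members lie highest for Fcer1g, Cd7, Gzmb, Xcl1, Klra5, Cd8a and Klra9, the Klra/Klrg1 cells lie next, and the Il17a cells lie lowest except where all classes are near 0.

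Against the 2155 liver cells set aside by Cd28 or Cd40lg and with at most 1 UMI of Tyrobp and Ncr1, 2565 genes were compared. Of these, 171 (6.67%) were higher in members and 134 (5.22%) lower. The pair that chose the members also bounds this class, so the ratios do not describe Cd28 or Cd40lg alone. Cd200r2 had the largest ratio at 17.6, followed by Klra9 at 17.4, Lag3 at 16.2 and Sult2b1 at 15.7. Ccl3 stood at 1259 against 89.2 CPM, Gzma at 4389 against 322 CPM and Ccl4 at 6925 against 525 CPM. Ccr7, which guides T cells to lymph nodes, was 23.1-fold lower in members and Ly6a, the Sca-1 antigen, 13.3-fold lower. Ifng did not follow Ccl3 and Gzma, at 751 against 856 CPM, a ratio of 0.878 (95% interval 0.844 to 0.913). The ribosomal-protein share was 30.2% of UMIs in this class against 22.1% in members, and its part was not tested.

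Against the 846 liver cells with at least 3 UMIs over Klra6, Klra7, Klrg1, S1pr5 and Gzmk, 2521 genes were compared, of which 34 (1.35%) were higher in members and 34 (1.35%) lower. Nkg7 was at 3493 and 3695 CPM, Prf1 at 14.7 and 14.0 CPM, Ccl4 at 6925 and 4827 CPM (ratio 1.43) and Gzma at 4389 and 5701 CPM (ratio 0.770). Of the leading genes against all other cells, Lag3 was at 116 and 119.6 CPM, Itgax at 104 and 103.7 CPM and Lat2 at 203 and 168.9 CPM. Gzmb was higher in members at a ratio of 1.53 (95% interval 1.497 to 1.56). None of 10 activating NK receptors was higher, and Klrb1a was lower at 33.9 against 63.3 CPM.

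Of 9 genes compared in the list of inhibitory receptors and their relatives, Klra5 (2.08), Klra9 (1.73), Klrc1 (1.62), Cd200r2 (1.60) and Cd200r4 (1.67) were higher by these ratios. Klra1 was 2.88-fold lower. Cd8a was higher at 404 against 223 CPM. Zeb2, a transcription factor of terminal NK cell and T cell maturation, had the lowest ratio, at 2.74 against 75.8 CPM (27.6-fold lower). Ccl9 was 25.4-fold lower, Ly6c2 3.55-fold lower, and the dividing-cell genes Stmn1 and Hist1h2ap 14.0-fold and 6.13-fold lower. S1pr5 and Klrg1, which go with Zeb2 in mature NK cells, were in the rule and are not compared.

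Several genes differed with the number of Tyrobp and Ncr1 UMIs, both among members and across the threshold. Cells with 0 or 1 UMI of the pair are not members. Across cells that met the other limits, Ccl4 stood at 972, 2195, 3597, 4342, 6007, 7402 and 8216 CPM in cells with 0, 1, 2, 3, 4 to 5, 6 to 9 and 10 or more UMIs of the pair. Gzmb went from 1296 over 2649 to 7188 CPM at 0, 2 and 10 or more UMIs, Fcer1g from 498 over 1670.2 to 3325 CPM, and Klra5 from 93.6 over 290.2 to 792 CPM. Tcf7 ran the other way, from 111 over 49.4 to 7.11 CPM, and Il7r from 177 over 47.4 to 16.9 CPM. The cells just inside the threshold were thus intermediate between those without the pair and those with the most. Ifng showed no such order, with 757, 851 and 679 CPM. The median depth was 2497 UMIs at 0 and 2868.5 UMIs at 10 or more, and the median ribosomal-protein share was 27.0% and 20.4%, and the part of either was not tested.

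**Figure D4:**
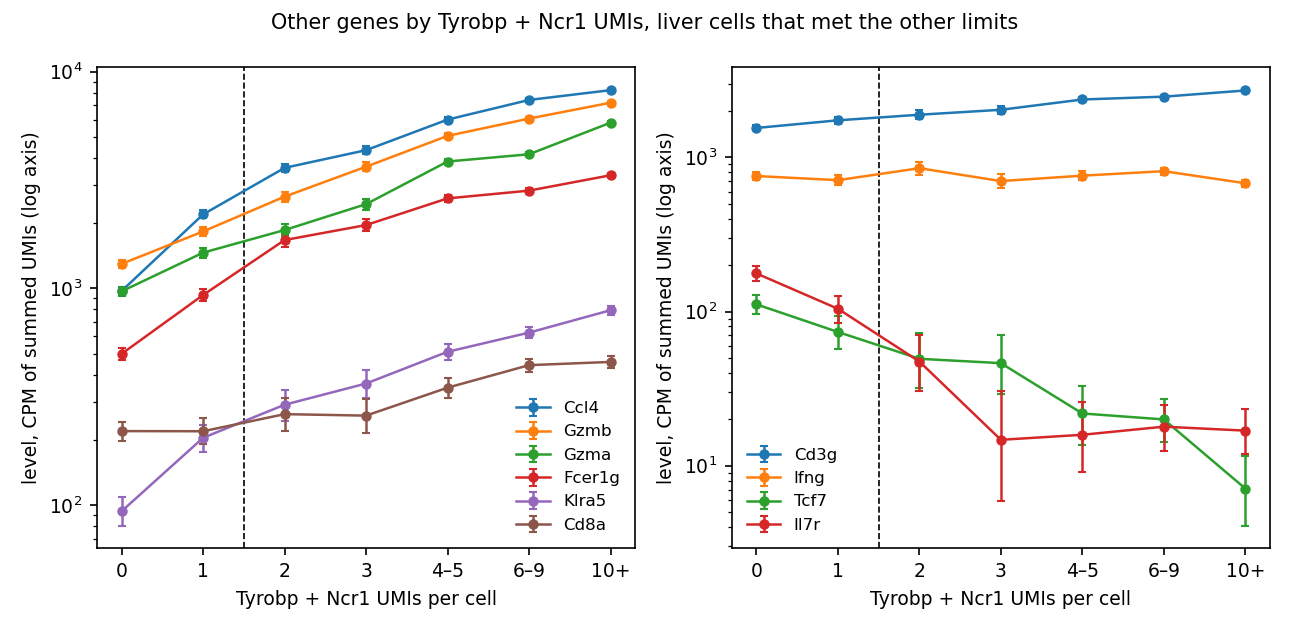
Level of single genes (y axis, CPM of summed UMIs, log scale) in liver cells that met the other limits, by their Tyrobp and Ncr1 UMIs (x axis), with 95% Poisson intervals and the threshold as a dashed line. In the left panel the effector and receptor genes climb across the threshold, and in the right panel Tcf7 and Il7r are lower above the threshold while Ifng stays level.

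The Fano factor, the variance of the thinned counts over their mean, is 1 for counting noise alone, and it had a median of 1.01 over 3340 genes in members, with 84 genes above 1.5. Ccl4 reached 13.8, Actb 13.5, Gzma 12.6, Hspa1a 9.76, Rgs1 8.31 and Ccl3 6.07. The highest 10% of members held 36.7% of the Ccl4 UMIs and 42.4% of the Gzma UMIs. Ccl5 was more even, at 4.95, against 24.7 among the other liver cells, and Cd3e, Cd3d and Hcst lay near counting noise at 1.05, 1.11 and 1.21.

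**Figure D5:**
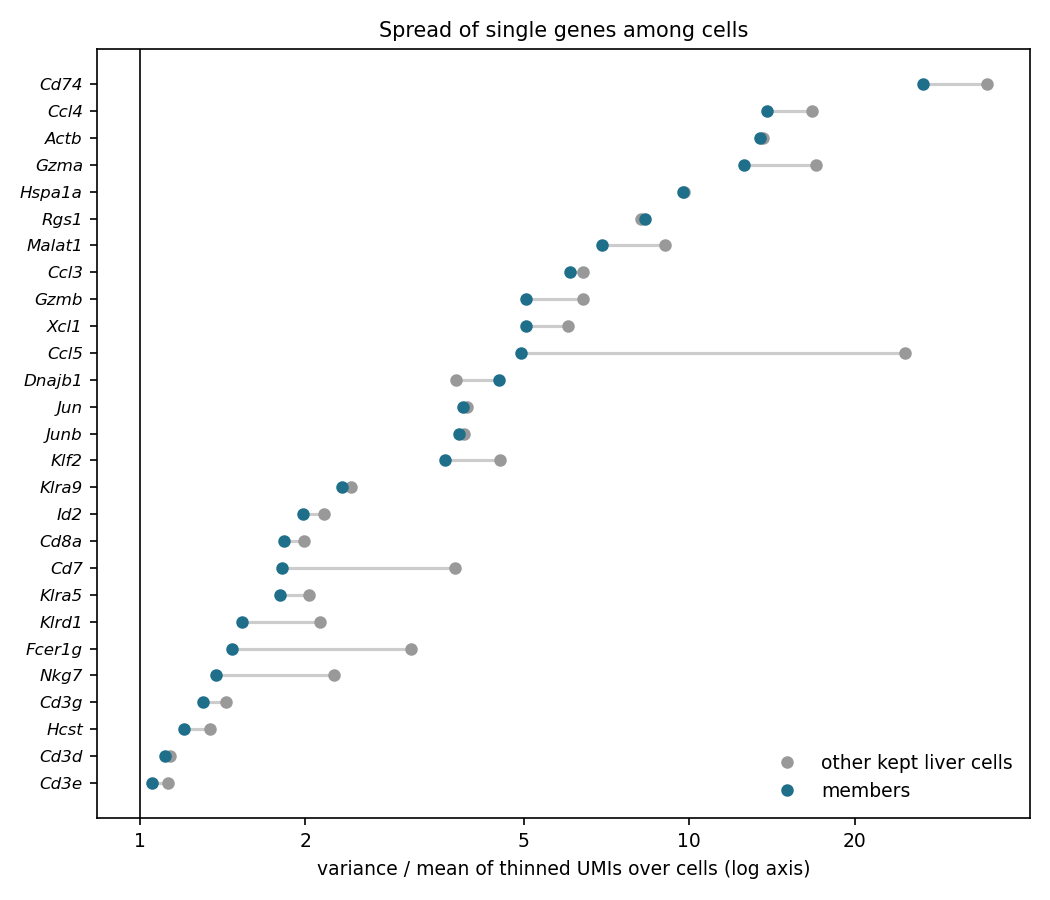
Fano factor of thinned UMI counts (x axis, log scale) for the 15 genes with the highest value in members and for 12 further genes (y axis), in members (blue) and other kept liver cells (grey). Cd74, Ccl4, Actb and Gzma are the most uneven among members, and the T cell receptor genes lie near 1.

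Cd74, the class II invariant chain, had the highest value of all, 26.7, and few cells held most of its UMIs. Of the 2194 members, 117 had a Cd74 UMI, 106 of them a single one, and 5 members with at least 10 UMIs held 79.9% of the total, up to 227 UMIs in 1 cell. Members with a Cd74 UMI had 403 CPM of the class II gene H2-Aa, against 4.62 CPM in members without, and 13 of the 15 UMIs of the B cell gene Cd79a. Their Cd3g level was 2331 against 2474 CPM and their median depth 2835 against 2681 UMIs.

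Ccl3 and Ccl4 correlated at 0.43 over the 2194 thinned members, Ccl5 and Cd7 at 0.40, Rgs1 and Gzmb at 0.37, and Ccl4 and Gzmb at 0.33, all within 1 library and at 1 depth. Ccl4 and Gzmb were read together in 83.4% of members and Gzma and Gzmb in 63.8%. The 1408 members with a Ccl3 UMI had, set beside the 786 without, 8685 against 3609.6 CPM of Ccl4 (ratio 2.41, 95% interval 2.35 to 2.47), and 719 against 810.0 CPM of Ifng.

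The 1677 members with a Klra5 or Klra9 UMI, compared with the 517 without, had 4861 against 2817 CPM of Gzma, a ratio of 1.73 (95% interval 1.67 to 1.78). Ccl4 and Gzmb were each 1.55-fold higher there, Ly6c2 was at 75.1 against 195 CPM and Tcf7 at 16.4 against 32.2 CPM. The 900 members with an Ncr1 UMI had 5557 against 3538 CPM of Gzma, a ratio of 1.57 (95% interval 1.53 to 1.61), and less Cd8a, 315 against 468 CPM, while Gzmb was nearly equal at 6054 against 5694 CPM. Gzma and Cd8a thus went opposite ways with Ncr1. The depth of the groups was similar, with medians of 2747.5 and 2644.5 UMIs for Ncr1 and 2700 and 2663 UMIs for Klra5 or Klra9.

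In the thymus 6 of 4351 kept cells (0.138%) met the same limits, too few to give levels. Over all kept thymic cells Tyrobp was read at 11.1 CPM, Ncr1 at 0.996, Klrd1 at 27.1, Gzmb at 21.4, Ccl4 at 26.7 and Fcer1g at 49.0 CPM. Gzma differed from these at 2807 CPM, next to 4389 CPM in the hepatic members. Cd3g was at 1171 CPM. With 1 library per tissue, the tissue and the library cannot be told apart.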

How the data were processed

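Single-cell RNA was measured by droplet 3′ chemistry in 1 hepatic and 1 thymic library. The authors deposited raw UMI counts per gene and barcode, with no normalization, and 27998 genes listed by symbol. The submitters' processing notes name Cell Ranger, Seurat 3.0 and the build mm10; versions of the aligner and annotation are not given in the sources used here. The thymic matrix ends in 2 lines without values, which were skipped.

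Cells with 800 to 4000 detected genes and at most 6% mitochondrial UMIs were kept, and 583 of 8658 liver barcodes were left out. UMIs were summed over the cells of a class and scaled to CPM from the deposited counts. Levels carry exact Poisson, ratios exact conditional binomial and shares exact binomial 95% intervals, all for counting error only. A gene counted as higher or lower at a ratio of 1.5 or more, in either direction, if it had at least 50 UMIs over both groups and 50 CPM in the higher group; the 17 genes of the class rule were left out. This size rule was tested on simulated sums that held counting noise only, so the spread between cells was not part of that test. The class was compared with all other kept liver cells, with the Cd28 or Cd40lg cells and with the cells holding at least 3 UMIs of the Klra6 group. With 1 library per tissue no p-value can be given, so differences are given by size alone.

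Genes named are those of 27 lists (374 of 377 symbols found), the 15 largest ratios in each direction against all other cells and the 8 largest against the closest classes, without mitochondrial and ribosomal-protein genes, and the 15 highest Fano factors. The members and lists were chosen with earlier results of these data known; the genes split on within the members, those shown by Tyrobp and Ncr1 UMIs, the Cd74 cells and the motifs were chosen after values were seen. Shares and spread were taken after each cell was thinned to 1500 UMIs (seed 11). Scrublet, as in scanpy 1.11.5, called 5 of 8658 liver barcodes doublets by its own threshold, too few for the caller to be trusted here, and no barcode was dropped for it. In 1 alternative the 600 highest-scoring barcodes were dropped, among them 142 members (6.47%) and 436 other kept cells (7.41%). Python 3.11.15, numpy 2.4.6, scipy 1.17.1, pandas 2.3.3 and matplotlib 3.10.9 were used. Other filters, class limits, scalings and minimum levels were tried. Promoter sequences are from RefSeq, and 3 of the 6 marker genes matched; Tyrobp, Ccl4 and Klrd1 did not. Some genes that the naming rule covers are not reported here.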

Additional observations from a re-analysis of the deposited data

How the results depend on the processing

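No paired analysis was possible because each tissue has 1 library, and for the same reason no replicate could be left out. The share of members moved from 27.2% to 24.9% with at least 3 UMIs of Tyrobp and Ncr1, to 31.4% with at least 1, to 21.8% with no UMI of the Klra6 group allowed and to 28.5% with the limits set after thinning. The main comparison covered 2551 genes. Without mitochondrial and ribosomal-protein UMIs in the totals, 3320 genes were compared, and 111 were higher and 211 lower. The share of calls that were higher went from 48.8% to 34.5%, and the median log2 ratio from 0.03 to -0.09. With no minimum CPM the counts were 492 higher and 1006 lower of 9784 genes compared, and with at least 100 CPM 67 and 61 of 1353. A comparison without the cells over the Il17a or macrophage limits, chosen after seeing the data, gave 100 higher and 76 lower of 2529. In it Apoe (1.21), Cd74 (1.31), H2-Aa (1.67), H2-Ab1 (1.72), H2-Eb1 (1.55) and Lgals3 (1.08) turned from lower to higher ratios. In the other alternatives 2457 to 2569 genes were compared, and 102 to 126 were higher and 104 to 133 lower. Over 229 named genes and 14 alternatives, 3206 ratios, 6 were reversed, 49 no longer passed 1.5-fold and 25 newly did. The depth of single cells limits shares of weakly read genes such as Prf1, and with 1 library the spread between mice is unknown.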

Other observations

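Members with and without Cd8a differed in other effector genes. The 991 members with a Cd8a UMI had 6524 against 5257 CPM of Gzmb, set beside the 1203 without, a ratio of 1.24 (95% interval 1.22 to 1.27). Gzma was lower in them at 3861 against 4848 CPM. The 1587 members with a Gzma UMI and the 607 without had 749.9 against 753 CPM of Ifng and 15.5 against 32.4 CPM of Tcf7. The median depth was 2720 and 2665 UMIs in the first split and 2709 and 2639 UMIs in the second, and its part was not tested.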
